A study of Mus musculus with 4 samples.

Results

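ATP-binding cassette (ABC) genes were taken as all gene symbols made of Abca, Abcb, Abcc, Abcd, Abce, Abcf or Abcg and a number, and 50 of the 24346 gene symbols were of this form. They were compared between hair follicle epithelial stem cells (HFSCs) after 10 passages (10p-HFSCs, 2 libraries) and after 48 passages (48p-HFSCs, 2 libraries). In both groups the cells came from dorsal skin of 4-week-old C3H/HeN mice, were sorted as CD49f+ CD34+ cells, and were grown without feeder cells or serum in the commercial medium M-CnT, so that the groups differ in passage number and in time in culture. The sources used here do not say whether libraries of a group came from separate cultures, and p-values therefore measure the spread between these libraries, which may be technical. The number of sorted mice behind the cultures is likewise not given, and a change along a single passaged line cannot be told apart from a change that every line would show.

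ABC proteins share a pair of domains that bind and hydrolyse ATP. Most members sit in a membrane and use this energy to move lipids, drugs, conjugates, peptides or metals across it, whereas ABCE and ABCF proteins lack membrane domains and act at the ribosome and in translation. ABCG2 exports dyes and drugs, and low dye retention through this exporter has long been used to sort "side population" cells, in skin as in bone marrow. ABCA12 loads lipid into the lamellar granules of keratinocytes, and its loss causes harlequin ichthyosis.

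The values were FPKM, fragment numbers scaled to transcript length and to library size, so that levels of different genes can be set side by side per unit of length. The 4 libraries had summed FPKM from 581516 to 1414953 and relative depths, read from the steps between low FPKM values, from 46.7% (replicate 2 of 48p-HFSCs) to 100% (replicate 1 of 10p-HFSCs). Low values were thus least precise in the shallowest library. Keratinocyte markers were high in all libraries, with Krt5 between 1473 and 8156 and Krt14 between 1217 and 3896, while Cd34 was at most 0.234 and Lhx2 at most 0.0241. The summed FPKM of 7 fibroblast markers was 68.9 and 60.2 in 10p-HFSCs, against 0.151 and 0.242 in 48p-HFSCs, nearly all of it from Col1a2, with Dcn, Lum and Thy1 at 0 in all libraries. Of 5 leukocyte markers, the summed FPKM was 0.641 and 0.694 in 10p-HFSCs, against 64.3 and 104 in 48p-HFSCs, nearly all from Cd74, while Cd3e and Tyrobp were at 0. Summed FPKM stayed between 0.292 and 2.87 for 5 endothelial markers and between 1.14 and 2.43 for 5 melanocyte markers, and for 5 muscle markers was 0.718 and 1.18 in 10p-HFSCs, against 11.8 and 11.5 in 48p-HFSCs, mostly through Des. The part of these markers in the results was not tested, and in bulk RNA fewer cells of a type and less RNA per cell cannot be told apart.

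Of the 50 ABC genes, 20 reached an FPKM of 1 in 2 or more libraries and were tested, among 11018 genes in all. Differences are given as 48p-HFSCs minus 10p-HFSCs on the log2(FPKM + 1) scale, which understates the change of low genes, and a gene was called at an adjusted p-value of limma under 0.05 together with a difference of at least 1. In 48p-HFSCs, 2 of the 20 genes were called higher (Abca7 and Abcg2), against a background of 10.8% of all genes tested, and 4 were called lower (Abca13, Abcb10, Abce1 and Abcf2), against 9.15%. The called share of 30% of 20 genes stood beside 19.9% over all genes, a difference of few genes, and Abcg2 and Abca13 passed the filter only through the group where they were high. Before adjustment, 12 of the 20 had a p-value below 0.05, against 37.4% of all genes. Over all genes 1189 were called higher and 1008 lower, against 623 (5.65%) and 812 (7.37%) under TPM rescaling, where 1 ABC gene (Abcg2) was called higher and 3 lower. The median difference was 0.14 for the ABC genes and -0.03 for all genes tested. For 9 genes the 48p-HFSC values were both higher than either 10p-HFSC value (background 31.7%), and for 9 both lower (background 34.3%), and the groups overlapped for Abca12 and Abcc1. Permuting the 4 libraries for a single gene (exact, two-sided) can reach no p-value below 0.333. Fewer genes were called when a 10p-HFSC library was left out, and the 48p-HFSC libraries alone then set the spread. Without replicate 1 of 10p-HFSCs limma called none of the 20 genes (all genes: 1.59%), with 4 below 0.05 before adjustment (all genes: 16.1%), and without replicate 2 of 10p-HFSCs Abca13 was the only call (all genes: 1.65%). Without replicate 1 of 48p-HFSCs 3 were called higher and 3 lower, against 17.6% and 17% of all genes, and without replicate 2 of 48p-HFSCs 3 and 2, against 9.78% and 6.96%.

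**Figure D1:**
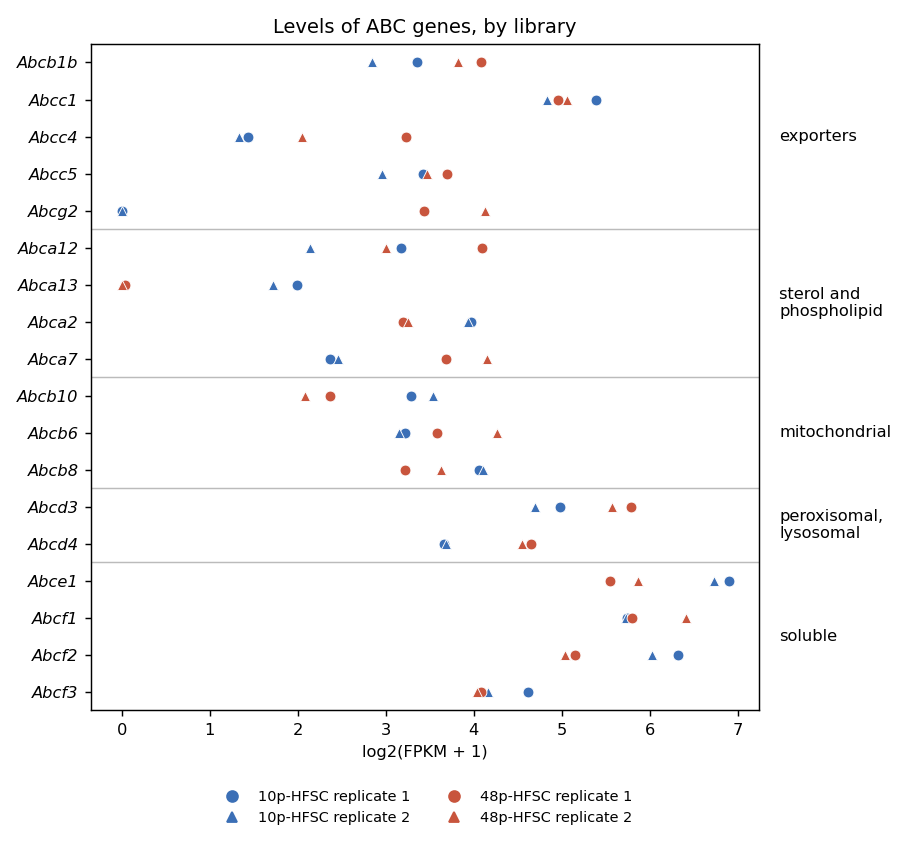
The level of 18 of the 20 tested ABC genes in each library, as log2(FPKM + 1) on the horizontal axis, grouped by role. Blue marks are 10p-HFSCs and red marks 48p-HFSCs, with circles for replicate 1 and triangles for replicate 2. Abcg2 sits at 0 in both 10p-HFSC libraries and Abca13 near 0 in both 48p-HFSC libraries, while Abce1, Abcf2 and Abcf1 are the highest genes in both 10p-HFSC libraries.

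The exporters of drugs and conjugates in the plasma membrane came to 11 genes, of which 5 were tested. Abcg2, on chromosome 6 of mm10 from 58584523 to 58695676, was listed at an FPKM of 0 in both 10p-HFSC libraries, whereas the 48p-HFSC libraries had 9.84 and 16.5. Both 48p-HFSC libraries thus held the transcript at a level within the range of the other expressed exporters, and neither 10p-HFSC library showed it. Its difference was 3.78 (standard error 0.32, limma adjusted p = 0.0014), which was the largest of the ABC genes and ranked 108 among all genes tested. The study itself lists Abcg2 among the most increased genes of these same libraries, so that its call is not independent evidence. No fold can be given, since an FPKM of 0 has no depth attached to it. It was among 106 genes of the series that were at 0 in both 10p-HFSC libraries and at 1 or more in both 48p-HFSC libraries. Without replicate 1 or replicate 2 of 10p-HFSCs the difference was unchanged at 3.78, as it had to be with both at 0, but the adjusted p-values were 0.068 and 0.066.

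RefSeq (GRCm38.p6, the assembly that mm10 also names) gives 3 starts for Abcg2, and the 250 bases before each are shown because the gene went from 0 to a clear level and the files do not say which start was used. Capitals mark the GC box (GGGCGG on either strand, so also CCGCCC, neighbouring boxes run together), which 32.7% of the 32851 promoter windows of this length in the table hold. All are on the + strand.
Abcg2 start 1, chr6:58584283-58584532: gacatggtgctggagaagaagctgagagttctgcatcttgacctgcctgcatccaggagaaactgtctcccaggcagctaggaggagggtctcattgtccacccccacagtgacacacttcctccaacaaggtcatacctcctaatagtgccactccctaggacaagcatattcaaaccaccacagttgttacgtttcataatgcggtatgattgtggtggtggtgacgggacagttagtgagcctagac
Abcg2 start 2, chr6:58596422-58596671: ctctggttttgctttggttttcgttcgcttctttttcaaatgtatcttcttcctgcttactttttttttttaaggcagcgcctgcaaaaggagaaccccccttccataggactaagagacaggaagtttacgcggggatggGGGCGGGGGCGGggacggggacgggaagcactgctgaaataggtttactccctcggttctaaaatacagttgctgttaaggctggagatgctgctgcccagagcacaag
Abcg2 start 3, chr6:58640296-58640545: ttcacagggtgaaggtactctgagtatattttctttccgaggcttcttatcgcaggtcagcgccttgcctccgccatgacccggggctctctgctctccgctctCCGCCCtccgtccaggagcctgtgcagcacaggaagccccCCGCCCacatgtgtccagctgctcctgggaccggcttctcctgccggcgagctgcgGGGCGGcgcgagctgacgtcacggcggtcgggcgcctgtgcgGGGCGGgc
These windows differ in base composition. The first holds 3 CpG dinucleotides and no GC box, the second 10 and 2 boxes, and the third 23 and 4 boxes, and the median over all windows was 6 CpG dinucleotides. The letters GCGTG (either strand), the core of the xenobiotic response element that the aryl hydrocarbon receptor binds, were in none of the 3 windows and in 28.2% of all windows. This says only that the letters are not in these stretches.

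The neighbourhood of Abcg2 was looked at after its values were seen. The next protein-coding gene downstream, Herc3, lies 135789 bp beyond the end of Abcg2 and was also higher, with FPKM of 0.0648 and 0.106 in 10p-HFSCs, against 5.42 and 9.34 in 48p-HFSCs, a difference of 2.91 (standard error 0.31, limma adjusted p = 0.0029). Like Abcg2, it passed the filter only through 48p-HFSCs. Nap1l5, which lies within Herc3, was at 0 in 10p-HFSCs, against 0.0349 and 0.248 in 48p-HFSCs. The nearest protein-coding genes upstream, the vomeronasal receptor genes Vmn1r31 and Vmn1r30, were at 0 in all libraries. Over the 482 tested genes of chromosome 6 the median difference was 0.02.

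Abcb1b encodes P-glycoprotein, the exporter first found in multidrug-resistant cells, together with its close copy Abcb1a on the same chromosome. It had an FPKM of 9.26 and 6.15 in 10p-HFSCs, against 16.0 and 13.1 in 48p-HFSCs. The libraries did not overlap, but the difference of 0.85 (95% interval 0.11 to 1.60, limma adjusted p = 0.10) was not called. Abcb1a was at most 0.247 in any library, and since nothing is said of multiply mapped reads, the division between both copies is uncertain.

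Of the ABCC exporters, Abcc1 was the most abundant exporter in every library. It encodes MRP1, which exports glutathione conjugates such as leukotriene C4, and had an FPKM of 40.7 and 27.6 in 10p-HFSCs, against 30.2 and 32.3 in 48p-HFSCs. The 48p-HFSC values lay between the 10p-HFSC values, and the difference of -0.10 had a 95% interval from -0.80 to 0.60 (limma adjusted p = 0.82). Abcc5, whose product exports cyclic nucleotides, was at 9.77 and 6.79 in 10p-HFSCs, against 12.0 and 10.1 in 48p-HFSCs, a difference of 0.39 (95% interval -0.34 to 1.12). It was -0.13 under TPM rescaling, which moved the median of all genes from -0.03 to -0.56, and relative to that median it stayed above 0 under every alternative run (at least 0.185). Abcc4 encodes MRP4, an exporter of cyclic nucleotides and prostaglandins. It was at 1.71 and 1.52 in 10p-HFSCs, against 8.41 and 3.12 in 48p-HFSCs. Both 48p-HFSC libraries were higher, but replicate 1 stood well above replicate 2, and the difference of 1.25 (95% interval 0.20 to 2.31, limma adjusted p = 0.093) was not called. The difference of Abcc4 was 1.85 without replicate 2 of 48p-HFSCs but 0.66 without replicate 1 of 48p-HFSCs. Abcc4 was called under quantile normalization, at 1.37 (limma adjusted p = 0.039). It was also called after a correction for length and GC content, at 1.495 (limma adjusted p = 0.033). Under TPM rescaling it was not called, at 0.92 (limma adjusted p = 0.44). Over the 365 tested genes of chromosome 14, where Abcc4 lies, the median difference was 0.44, and its part in the result was not tested.

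The other exporters were low. Abcc3, encoding MRP3, was at 0.673 and 0.754 in 10p-HFSCs, against 1.54 and 0.829 in 48p-HFSCs, and did not pass the filter. Abcc2 (at most 0.556) and Abcc10 (at most 0.912) stayed below an FPKM of 1, and Abcc6 and Abcc12 were at most 0.0144 and 0.0475.

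Transporters of sterols and phospholipids were the largest role with 17 genes, but only 4 were tested. Abca7, which moves phospholipids at the cell surface and in phagocytosis, rose. It had an FPKM of 4.15 and 4.49 in 10p-HFSCs, against 11.9 and 16.8 in 48p-HFSCs, a ratio of means of 3.32. The groups were well apart, with a difference of 1.51 (standard error 0.29, limma adjusted p = 0.020). The call was lost without replicate 1 or replicate 2 of 10p-HFSCs (limma adjusted p = 0.29 and 0.25) and under TPM rescaling (difference 1.02, limma adjusted p = 0.36).

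Abca13, on chromosome 11 from 9191942 to 9684259, encodes one of the largest ABC proteins and has an annotated transcript of 16011 bases. It was at 2.96 and 2.29 in 10p-HFSCs, against 0.0224 and 0 in 48p-HFSCs. The transcript was thus low at 10 passages and nearly absent from the libraries at 48, with a difference of -1.84 (standard error 0.23, limma adjusted p = 0.0049). By limma the adjusted p-value was 0.059 without replicate 1 of 10p-HFSCs. No fold is given against a library at 0. In the series, 154 genes were at 1 or more in both 10p-HFSC libraries and below 0.05 in both 48p-HFSC libraries. The 250 bases before its RefSeq start are shown for comparison with the starts of Abcg2, as the gene that moved the opposite way.
Abca13, chr11:9191692-9191941, + strand: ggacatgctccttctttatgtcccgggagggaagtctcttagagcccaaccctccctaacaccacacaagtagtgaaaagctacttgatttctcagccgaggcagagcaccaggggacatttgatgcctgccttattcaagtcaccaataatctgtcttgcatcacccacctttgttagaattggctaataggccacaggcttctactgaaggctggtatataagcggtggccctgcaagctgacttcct
This window holds 3 CpG dinucleotides, no GC box and no GCGTG. Upp1, the nearest protein-coding gene upstream (55772 bp away), was at 7.79 and 7.45 in 10p-HFSCs, against 15.3 and 14.7 in 48p-HFSCs, a difference of 0.89 that was not called (limma adjusted p = 0.057).

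Abca12, the lipid transporter of keratinocyte lamellar granules, had an FPKM of 8.02 and 3.39 in 10p-HFSCs, against 16.1 and 7.001 in 48p-HFSCs. Replicate 2 lay below replicate 1 in both groups and the groups overlapped, and the difference of 0.90 (95% interval -0.36 to 2.15, limma adjusted p = 0.25) was not called. Abca2, a lipid transporter of late endosomes and lysosomes, was at 14.7 and 14.3 in 10p-HFSCs, against 8.16 and 8.54 in 48p-HFSCs. Replicates were close in both groups and did not overlap, but the difference of -0.73 (95% interval -1.35 to -0.11, limma adjusted p = 0.094) was below the limits.

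The cholesterol exporters proper were at or near 0. Abca1, which passes cholesterol to apolipoprotein A1, was at most 0.00486, Abcg1 at most 0.0122, and Abcg5 was listed at 0 in all libraries and Abcg8 at most 0.0346. Abca5 was at 0.800 and 0.499 in 10p-HFSCs, against 0 and 0.0130 in 48p-HFSCs, and Abcg4 at 0.243 and 0.519 against 0.0689 and 0.0306. Both lay lower in 48p-HFSCs in both libraries, at levels that did not pass the filter. Abca5 lies on chromosome 11 in a row with Abca6, Abca8a, Abca8b and Abca9, and these 4 neighbours were at most 0.125 in any library.

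All 4 transporters of the inner mitochondrial membrane and of porphyrin handling were tested, and 1 was called (all genes: 19.9%). Abcb10, which supports heme synthesis, fell, with an FPKM of 8.75 and 10.6 in 10p-HFSCs, against 4.15 and 3.24 in 48p-HFSCs. The libraries were well apart, with a ratio of means of 2.62 and a difference of -1.19 (standard error 0.28, limma adjusted p = 0.035). The call was lost without replicate 1 or 2 of 10p-HFSCs (limma adjusted p = 0.30 and 0.34), without replicate 2 of 48p-HFSCs (0.077), without the filter on low values (0.077) and under TPM rescaling (0.15), always with a difference of -1.05 or lower. A strand setting for the counting was not given, and the antisense gene Gm45890 shares 10.3% of the exonic bases of Abcb10.

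Abcb8, a subunit of a mitochondrial potassium channel, was at 15.6 and 16.3 in 10p-HFSCs, against 8.34 and 11.3 in 48p-HFSCs, a difference of -0.66 (limma adjusted p = 0.14). Abcb6, a porphyrin transporter, was at 8.31 and 7.85 in 10p-HFSCs, against 10.99 and 18.2 in 48p-HFSCs, a difference of 0.74 (limma adjusted p = 0.15). This difference was 1.08 without replicate 1 of 48p-HFSCs, 0.40 without replicate 2 of 48p-HFSCs and 0.21 under TPM rescaling. Neither Abcb8 nor Abcb6 was called with all libraries. Reads of Abcb6 are uncertain, since Gm29253, annotated on the same strand, covers 55.2% of its exonic bases.

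Of the 5 peroxisomal and lysosomal transporters, 3 were tested and none was called by limma, while 2 had a p-value below 0.05 before adjustment (all genes: 37.4%). Abcd3, the abundant peroxisomal membrane protein PMP70, was at 30.7 and 24.8 in 10p-HFSCs, against 54.0 and 46.4 in 48p-HFSCs, a ratio of means of 1.81. Its libraries did not overlap, with a difference of 0.84 (95% interval 0.20 to 1.47, limma adjusted p = 0.072). Abcd4, which works in the release of cobalamin from lysosomes, was at 11.6 and 11.8 in 10p-HFSCs, against 24.0 and 22.4 in 48p-HFSCs. Replicates were close, and the adjusted p-value of 0.047 by limma was under the limit, but the difference of 0.93 (95% interval 0.33 to 1.53) was not large enough for a call. Abcd2 was listed at 0 in all libraries, and the lysosomal peptide transporter Abcb9 was at 0.0937 and 0.305 in 10p-HFSCs, against 0.640 and 1.04 in 48p-HFSCs, which did not pass the filter.

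The soluble ABC proteins included the most abundant members, and 2 of 4 were called lower (background 9.15%). Abce1, which splits ribosomes into their subunits after termination, had an FPKM of 118 and 105 in 10p-HFSCs, against 45.8 and 57.5 in 48p-HFSCs, a ratio of means of 2.16. The groups were far apart for this abundant transcript, with a difference of -1.11 (standard error 0.27, limma adjusted p = 0.039). Abcf2 was at 78.9 and 64.1 in 10p-HFSCs, against 34.6 and 31.7 in 48p-HFSCs, also 2.16-fold by the ratio of means, with a difference of -1.08 (standard error 0.26, limma adjusted p = 0.035). Both differences lie close to the limit of 1. The call of Abce1 was lost without either 10p-HFSC library (limma adjusted p = 0.40 without replicate 1 and 0.29 without replicate 2), without replicate 1 of 48p-HFSCs (difference -0.94), without the filter (0.051) and after the length and GC correction (difference -0.99), and that of Abcf2 without either 10p-HFSC library (0.40 and 0.26) and without replicate 2 of 48p-HFSCs (0.067).

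The other 2 soluble genes were not called. Abcf1, whose product binds initiation factor eIF2 and the ribosome, was at 52.3 and 52.2 in 10p-HFSCs, against 54.8 and 84.1 in 48p-HFSCs, a difference of 0.37 (95% interval -0.37 to 1.11). It was -0.20 under TPM rescaling, but relative to the median of all genes it stayed above 0 under every alternative run (at least 0.122). Abcf3 was at 23.4 and 16.9 in 10p-HFSCs, against 15.9 and 15.4 in 48p-HFSCs, a difference of -0.33 (95% interval -1.003 to 0.344). In 10p-HFSCs the order of these genes was Abce1, Abcf2, Abcf1 and Abcf3 in both libraries, and in 48p-HFSCs Abcf1 and Abce1 came first, with Abcf1 at the top in both, followed by Abcf2 and Abcf3.

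**Figure D2:**
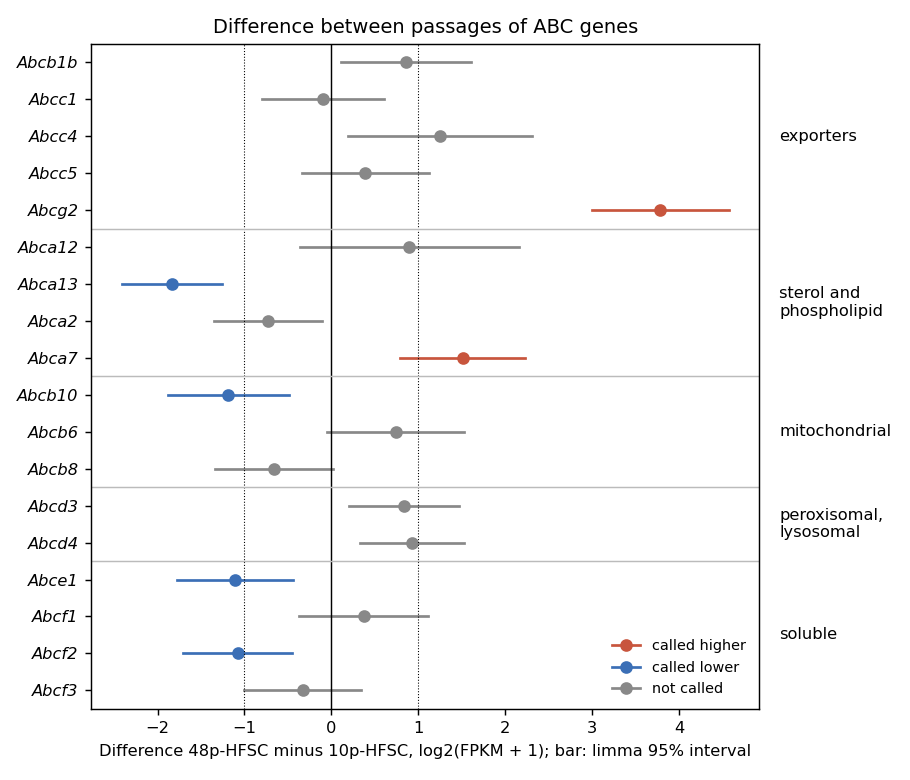
The difference between 48p- and 10p-HFSCs for 18 of the 20 tested ABC genes on the log2(FPKM + 1) scale (points), with the 95% interval of the limma fit (bars), grouped by role. Red genes were called higher, blue genes lower and grey genes neither, and dotted lines mark the limit of 1 in each direction. Abcg2 at 3.78 stands apart, and most other intervals reach across the limit of 1 or across 0.

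Abce1 and Abcb10, 2 of the 4 genes that fell, lie on chromosome 8, at 79683462 to 79711740 and at 123952459 to 123983122. The median difference of the 565 tested genes of this chromosome was -0.61, the lowest of the 13 chromosomes that carry tested ABC genes, and its part in both results was not tested. Beside Abcb10, the upstream neighbour Taf5l and the downstream neighbour Nup133 had differences of -1.18 (limma adjusted p = 0.033, called lower) and -0.77 (limma adjusted p = 0.14). Acta1, the next gene beyond Nup133, was called higher (1.75, limma adjusted p = 0.0056), having passed the filter only through 48p-HFSCs. Urb2, the next gene beyond Taf5l, had a difference of -1.38 (limma adjusted p = 0.054) and was not called. Anapc10, which starts 80 bp from the start of Abce1 on the opposite strand, was at 8.97 and 8.88 in 10p-HFSCs, against 4.49 and 5.64 in 48p-HFSCs, a difference of -0.72 (limma adjusted p = 0.11), while Otud4 on the far side had -0.37. Smad1, the next gene beyond Otud4, was called lower (-1.68, limma adjusted p = 0.012), and Hhip, the next beyond Anapc10, was not tested. Abcf2 lies on chromosome 5, whose 687 tested genes had a median of -0.33, as do Abcb8, with a difference of the same sign, and Abcb1b, with the opposite sign.

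Shares of the summed FPKM of all 50 genes do not change when a whole library is multiplied by a single factor. Quantile normalization and the length and GC correction change genes unequally, and shares were not computed under them. The 4 soluble proteins held 58.47% and 59.75% of this sum in 10p-HFSCs, against 39.53% and 45.73% in 48p-HFSCs. Plasma membrane exporters held 13.55% and 10.96% against 20.76% and 18.52%, and peroxisomal and lysosomal transporters 9.40% and 9.54% against 20.85% and 17.01%. Mitochondrial transporters held 11.87% and 13.32% against 9.25% and 10.81%, and sterol and phospholipid transporters 6.70% and 6.44% against 9.61% and 7.90%. In each of these 5 roles the groups did not overlap, but shares of one sum are not independent of each other, and 2 libraries against 2 allow no exact p-value under 0.333. The sum itself was 466.5 and 399.2 in 10p-HFSCs, against 382.2 and 412.6 in 48p-HFSCs, so that the groups overlapped in the total.

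**Figure D3:**
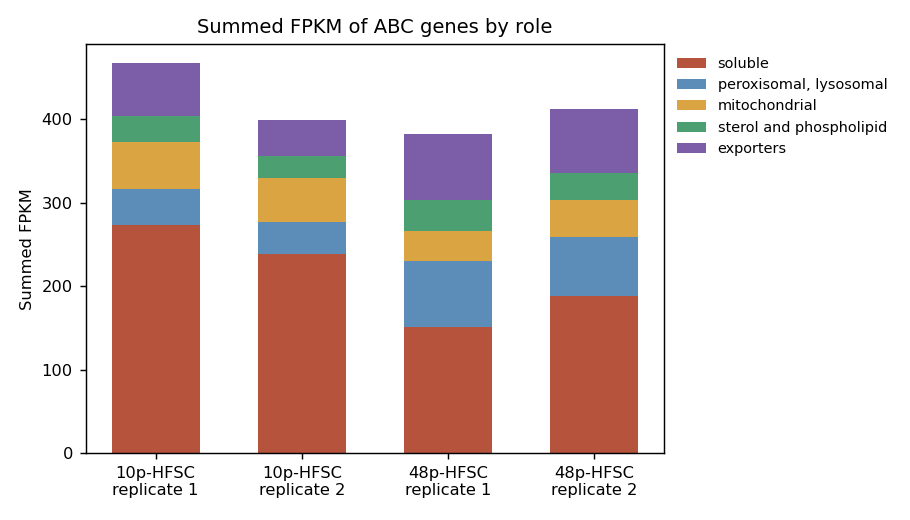
Summed FPKM of the ABC genes in each library (bar height, starting at 0), divided by role (colours). The soluble proteins make up 272.8 and 238.5 in 10p-HFSCs, against 151.1 and 188.7 in 48p-HFSCs, while the whole bars stay between 382.2 and 466.5.

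The remaining ABC genes gave little or no signal. Of the 30 that did not pass the filter, 7 were listed at 0 in all 4 libraries, 21 were above 0 in some library but below 1 in all, with a maximum of 0.912 for Abcc10, and Abcb9 and Abcc3 reached 1 in a single library. The genes at 0 throughout were Abca15, Abca17, Abca8b, Abcb11, Abcc8, Abcd2 and Abcg5, and they include the bile salt exporter of the liver (Abcb11) and a subunit of the potassium channel of pancreatic beta cells (Abcc8). Abca4, the retinal transporter, was at 0.0555 and 0.0582 in 10p-HFSCs, against 0.435 and 0.223 in 48p-HFSCs. By subfamily, 4 of 16 Abca, 5 of 10 Abcb, 3 of 10 Abcc, 3 of 4 Abcd, 1 of 6 Abcg and all 4 Abce and Abcf genes were tested.

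ABC family genes with other names were set beside these. Tap1 and Tap2 encode the transporter that brings peptides into the endoplasmic reticulum for MHC class I. Tap1 fell, from 7.09 and 6.99 to 1.57 and 1.26, a difference of -1.74 (standard error 0.26, limma adjusted p = 0.0084). Tap2 was at 9.41 and 8.69 against 5.21 and 4.58 (difference -0.77, limma adjusted p = 0.093). None of the 9 tested genes of peptide loading, among them B2m and Tapbp, was called by limma, and their median difference was 0.08. Before adjustment 1 (Tapbp) had a p-value below 0.05 (all genes: 37.4%). B2m and Tapbp lay higher in both 48p-HFSC libraries. B2m was at 348 and 385 against 634 and 793 (difference 0.95, limma adjusted p = 0.16). Tapbp was at 41.5 and 49.8 against 72.6 and 99.7 (difference 0.89, limma adjusted p = 0.080). Cftr was at most 0.0336.

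Among 21 genes of regulators known to act on ABC genes, 11 were tested, 1 was called higher (background 10.8%) and 1 lower (background 9.15%). Ahr, the aryl hydrocarbon receptor, known to raise ABCG2 when its ligands bind, rose from 0.915 and 0.839 to 9.68 and 7.54, a difference of 2.35 (standard error 0.27, limma adjusted p = 0.0036), having passed the filter only through 48p-HFSCs. Hif1a, the hypoxia factor, fell from 89.4 and 60.0 to 30.1 and 22.3 (difference -1.46, limma adjusted p = 0.026). The liver X receptor gene Nr1h2, which acts on Abca1 and Abcg1, was expressed at 37.9 and 55.3 against 48.1 and 70.7, and Nfe2l2, the regulator of antioxidant genes, at 52.5 and 35.5 against 61.4 and 22.8. Neither was called.

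Genes that work with the ABC proteins were counted by list. In the list of the epidermal lipid barrier around ABCA12, 3 of 5 tested genes were called higher, the ceramide synthase Cers3 from 0.305 and 0.246 to 29.7 and 18.99, the transglutaminase Tgm1 from 0.0369 and 0.0268 to 6.57 and 11.1, and the sphingomyelinase Smpd1 from 4.58 and 4.14 to 9.45 and 11.1. In the list of uptake carriers of organic ions, 3 of 4 tested genes were called higher, with Slco1a5 from 0.144 and 0.0864 to 23.8 and 22.7, Slco4a1 from 4.69 and 3.88 to 12.2 and 27.0, and Slco3a1 from 0 in both to 2.61 in both. Cers3, Tgm1, Slco1a5 and Slco3a1 passed the filter only through 48p-HFSCs. Of 14 tested conjugating enzymes, Gstm2 was called higher (52.7 and 66.2 against 150 and 198) and Gsta2, Gsta3 and Ugt1a7c lower. Of 12 mitochondrial partners Slc25a37, the iron importer mitoferrin, was called higher, and of 9 peroxisomal partners Acox3 was called higher and Pex3 lower. None of the 9 tested translation partners was called by limma (3 had an unadjusted p-value below 0.05, against 37.4% of all genes), and their median difference was -0.35. The background for these counts is the same 10.8% of genes called higher and 9.15% called lower.

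Replicates differed in a way that followed transcript length. Replicate 2 lay below replicate 1 in 15 of the 20 tested ABC genes in 10p-HFSCs and in 11 in 48p-HFSCs. The median of replicate 2 minus replicate 1 was -0.20 in 10p-HFSCs and -0.035 in 48p-HFSCs for these genes. Over all tested genes it was 0 and 0.005. Over all 10612 tested genes with a length, the difference between replicates 2 and 1 had a correlation with log2 length of -0.48 in 10p-HFSCs and -0.36 in 48p-HFSCs, and over the 20 ABC genes of -0.27 and -0.20. The difference between 48p- and 10p-HFSCs had a correlation with log2 length of -0.23 over all these genes and -0.005 over the ABC genes. These are correlations across genes that share the same libraries and are given as a description. The ABC genes were longer than most, with a median longest transcript of 4306 bases against 3285 for all tested genes. When library-specific trends with transcript length and GC were removed, a step added after the values had been seen, 5 ABC genes were called higher (Abca7, Abcb1b, Abcc4, Abcd4 and Abcg2, background 10.9%) and 3 lower (Abca13, Abcb10 and Abcf2, background 10.4%).

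**Figure D4:**
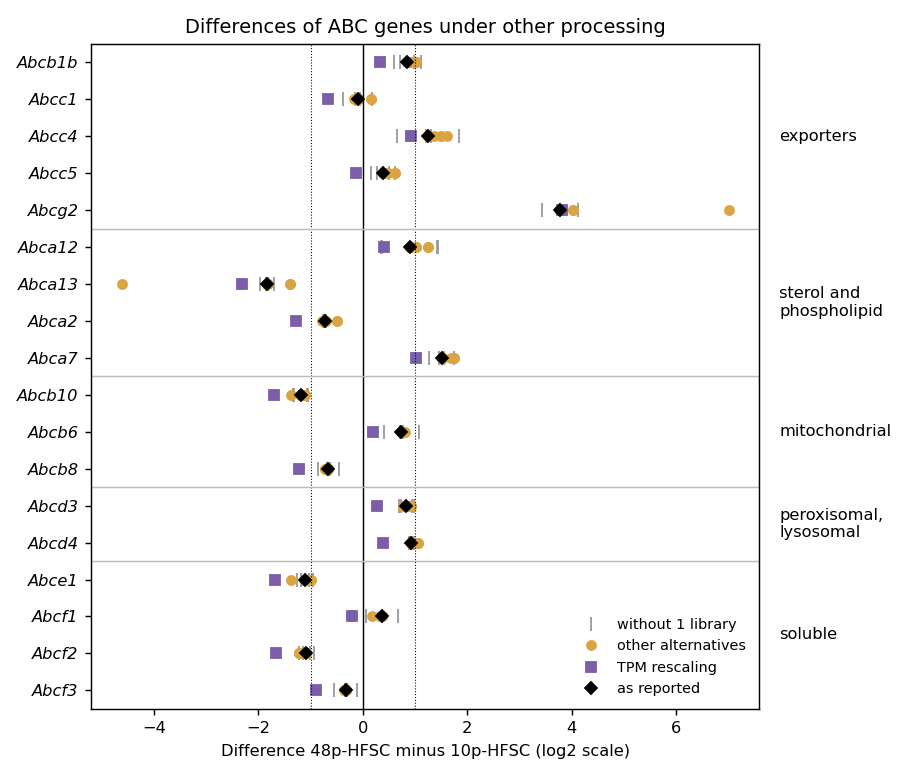
The difference between 48p- and 10p-HFSCs of 18 of the 20 tested ABC genes as reported (black diamonds), under TPM rescaling (purple squares), under the other alternatives (yellow circles) and without each library in turn (grey strokes), on the log2 scale of each alternative. Rescaling to TPM moves nearly all genes to the left, the outlying points of Abcg2 (7.01) and Abca13 (-4.61) come from a pseudocount of 0.1, and the sign changes under some alternative only for Abcc1, Abcc5 and Abcf1, the latter pair under TPM rescaling, which moves the median of all genes to -0.56.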

How the data were processed

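RNA was extracted with TRIzol, libraries were made with a TruSeq stranded mRNA kit, and single reads of 101 bp were mapped by the authors to mm10 with TopHat 2.1.1, Bowtie2 and SAMtools. The deposited values are FPKM per gene symbol and library. The study's methods name Cufflinks, and the submitters' processing notes name Cuffdiff 2.2.1, Bowtie2 2.2.8 and SAMtools 0.1.18. The annotation and the strand setting are not given in the sources used here. The depth behind FPKM values is unknown, so no counting interval is given, and relative depth was read from the most common ratio of FPKM values under 0.3.

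Genes reaching an FPKM of 1 in 2 or more libraries were compared on log2(FPKM + 1) with limma 3.58.1 (variance trend, no block) in R 4.3.3, with Benjamini-Hochberg adjustment over 11018 genes. The study names DESeq2, a test for counts, which does not apply to FPKM. A call needed both an adjusted p-value below 0.05 and a difference of 1 or more in size. The members, roles, lists of partner genes and markers were chosen with earlier results of these data known. Named with values were ABC genes called with or without the replicate block, Abcg2, those with a mean FPKM of at least 10 in a group or of at least 1 in a library while failing the filter, and called partner genes. Other ABC genes, neighbouring genes, and Tap2, B2m, Tapbp, Nr1h2 and Nfe2l2 were added after their values were seen. Positions and transcript lengths came from GENCODE M21 (GRCm38). A RefSeq promoter window was found for 38 of the 50 genes (45 windows), and all were searched for the GC box, the xenobiotic and antioxidant response element cores, the LXR direct repeat, the E-box and the TATA box on both strands. Alternatives were another pseudocount, filters, scalings, variance prior, call limits, the replicate number as a block, leaving out each library, and removal of length and GC trends (natural splines, 4 degrees of freedom each), added later. Values of some genes are not reported here. Python 3.11 was used for the rest.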

Additional observations from a re-analysis of the deposited data

How the results depend on the processing

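Of the 20 ABC genes, Abcg2, Abca13 and Abcf2 were called under every alternative that kept all 4 libraries. Abcg2 and Abca13 were at or near 0 in a single group and passed the filter only through the other. Their calls under other processing of the same 4 libraries are therefore no independent support. ABC genes called higher numbered 1 under TPM rescaling, 5 after the length and GC correction and 6 after this correction with the replicate block (2 as reported; 13.1% of all genes higher and 13.2% lower in the last), and those called lower 2 without the filter on low values (4 as reported). All genes called higher fell to 623 under TPM rescaling (1189 as reported), and those called lower to 637 without the filter (1008 as reported). Without the filter 16679 genes were tested (43 of them ABC genes) in place of 11018 (20 of them ABC genes), so these counts come from unlike sets. TPM rescaling moved the median difference of all genes from -0.03 to -0.56, so that changes on that scale are read against this shift. Partner genes called higher numbered 4 under TPM rescaling (10 as reported, all genes 5.65%). Those called lower (7 as reported) numbered 4 without the filter and 11 with the replicate block (all genes 13.6%). They numbered 13 with the block and the length and GC correction (all genes 13.2%). The sign reversed for Abcc5 (-0.13) and Abcf1 (-0.20) under TPM rescaling, both of them above its median shift, and for Abcc1 without replicate 1 of 10p-HFSCs (0.17, where leaving out each library gave -0.37 to 0.17) and after the length and GC correction, with or without the block (0.16), none of them called. Without each library in turn, the counts ranged from 0 to 3 for ABC genes called higher and 0 to 3 for those called lower, from 35 to 1936 and from 140 to 1875 for all genes, and from 1 to 14 and 1 to 9 for partner genes. They were lowest without a 10p-HFSC library, where the lone library is assumed to vary like the 48p-HFSC libraries, which alone then set the spread.

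The groups share replicate numbers, which the labels tie to no animal or batch. Deviations of same-numbered libraries had a correlation of 0.41 across all genes and 0.49 across the 20 ABC genes, and the cause was not tested. With the replicate block, Abcc4 was also called higher (difference 1.25, limma adjusted p = 0.0097), for 3 ABC genes higher and 4 lower, against a background of 14.6% and 13.6% of all genes, and no other ABC call changed. FPKM values hold no read counts, so that low values such as those of Abca13 have no known precision.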
